A study of Arabidopsis thaliana with 39 samples.

Results

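The iron deficiency regulators and uptake genes of Arabidopsis thaliana described here were 10 genes, taken from the 28775 genes of each seedling table and the 33562 genes of the apex table by their locus identifiers. They were chosen for large differences in the fld, ld and ld pol2a genotypes, so their values in those genotypes are given as a description with no test. All 10 were present in every table. FIT (AT2G28160) is listed in the RefSeq annotation as FRU.

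There were 13 groups of 3 libraries, 39 in all, from mutants of the autonomous flowering pathway and of DNA replication. Seedling set 1 held fld, ld and Col0. Seedling set 2 held ld pol2a, ld, pol2a and Col0, and seedling set 3 held ld and Col0. The apex set held ld pol2a, ld, pol2a and Col0. Col0 is the wild-type accession. FLD is a homologue of histone demethylases and LD a homeodomain protein, and both act in the autonomous pathway of flowering. POL2A is the catalytic subunit of DNA polymerase epsilon. All plants were grown for 7 days on diluted Murashige and Skoog medium with 16 h of light a day, with no iron treatment named in the labels. Seedling RNA was prepared with Trizol from whole plantlets and had a spike-in, foreign RNA that sets a scale for each library. Each apex library was made from 30 dissected shoot apices with a NucleoSpin kit and had no spike-in. The labels used here name no alleles. They number the replicates without saying whether plants were grown apart, so the p-values reflect library-to-library spread that may be purely technical.

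Iron in soil is mostly insoluble, and Arabidopsis roots acquire it by reduction: protons and coumarins mobilise ferric iron, the reductase FRO2 turns it into ferrous iron, and the transporter IRT1 takes that up. The transcription factor FIT drives FRO2 and IRT1 in the root epidermis as a partner of the subgroup Ib bHLH factors BHLH38, BHLH39, BHLH100 and BHLH101, whose transcripts rise when iron is short. PYE is a bHLH factor of the same response that restrains iron distribution genes, CYP82C4 is a cytochrome P450 that makes the coumarin sideretin, and OPT3 loads iron into the phloem for the signal from shoot to root.

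The 4 Ib genes lie at 3 places in the TAIR10.1 build. BHLH38 (AT3G56970, chr3:21084035-21085245) and BHLH39 (AT3G56980, chr3:21086390-21087710) are neighbours on the minus strand, with 1144 bases between them. BHLH100 (AT2G41240) lies at chr2:17198037-17199454 and BHLH101 (AT5G04150) at chr5:1138410-1139633, both on the minus strand. The coding sequences of BHLH38 and BHLH39 were 84.8% identical, with a longest shared run of 34 bases, and BHLH101 was the most distant, at 61.1% to 64.3%. How reads that match more than 1 of these copies were counted is unknown, so the split between BHLH38 and BHLH39 is uncertain. FIT lies at chr2:12004658-12006276, PYE (AT3G47640) at chr3:17567126-17569394, IRT1 (AT4G19690) at chr4:10707344-10709015, FRO2 (AT1G01580) at chr1:208995-213082 and CYP82C4 (AT4G31940) at chr4:15451988-15454224, all on the plus strand. OPT3 (AT4G16370) lies on the minus strand at chr4:9247302-9250343. The exons of BHLH38 share 386 of 1082 bases with AT3G56960 and those of BHLH101 share 79 of 1083 with AT5G04140, each on the opposite strand. The labels do not say if reads were assigned by strand, and the values of BHLH38 and BHLH101 are uncertain to that extent.

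The 250 bases before the annotated start are shown for the 4 Ib genes, whose levels are set side by side below, and for OPT3, the member that stood highest in apices. They were read from the RefSeq TAIR10.1 genome on each gene's own strand, 5′ to 3′, in lower case with every E-box (CANNTG, the core bound by bHLH proteins, the same on both strands) in capitals. In the order of the lines below, the windows are chr3:21085246-21085495 (minus strand), chr3:21087711-21087960 (minus strand), chr2:17199455-17199704 (minus strand), chr5:1139634-1139883 (minus strand) and chr4:9250344-9250593 (minus strand).
BHLH38: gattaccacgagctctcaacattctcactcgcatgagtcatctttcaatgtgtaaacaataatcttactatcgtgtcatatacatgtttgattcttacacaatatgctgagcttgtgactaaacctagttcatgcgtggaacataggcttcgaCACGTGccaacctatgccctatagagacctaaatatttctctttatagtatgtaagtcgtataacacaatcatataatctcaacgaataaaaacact
BHLH39: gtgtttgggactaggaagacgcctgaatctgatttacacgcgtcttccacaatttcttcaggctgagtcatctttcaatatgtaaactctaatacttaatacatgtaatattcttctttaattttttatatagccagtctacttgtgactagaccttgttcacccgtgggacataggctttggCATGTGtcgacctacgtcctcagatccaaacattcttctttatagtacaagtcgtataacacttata
BHLH100: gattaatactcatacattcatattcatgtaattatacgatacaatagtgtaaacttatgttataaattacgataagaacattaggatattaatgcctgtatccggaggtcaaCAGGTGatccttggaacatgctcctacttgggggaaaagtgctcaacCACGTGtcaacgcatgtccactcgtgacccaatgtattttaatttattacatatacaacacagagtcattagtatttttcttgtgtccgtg
BHLH101: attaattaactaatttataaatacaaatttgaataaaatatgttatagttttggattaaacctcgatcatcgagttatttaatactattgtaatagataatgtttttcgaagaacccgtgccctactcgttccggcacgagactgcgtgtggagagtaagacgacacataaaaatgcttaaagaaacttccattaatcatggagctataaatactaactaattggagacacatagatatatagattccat
OPT3: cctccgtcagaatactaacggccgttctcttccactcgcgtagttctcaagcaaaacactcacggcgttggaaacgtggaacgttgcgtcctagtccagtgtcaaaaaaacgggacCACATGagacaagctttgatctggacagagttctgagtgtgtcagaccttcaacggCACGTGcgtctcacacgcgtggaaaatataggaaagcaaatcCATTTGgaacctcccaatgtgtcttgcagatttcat

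An E-box stood in this window in 5 of the 10 members (BHLH38, BHLH39, BHLH100, FIT and OPT3), and in 55.3% of 27443 windows of all protein-coding genes. The G-box CACGTG, which is one of the E-boxes, stood in BHLH38 at 97 bases, in BHLH100 at 91 and in OPT3 at 78 bases before the start, and in 6.49% of all windows. The BHLH101, PYE, IRT1, FRO2 and CYP82C4 windows held no CANNTG. These are matches of letters and not binding sites.

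Depth was 10404890 to 14386479 reads per library in set 1, between 13181348 and 34966304 in set 2, and between 23140244 and 37776373 in set 3. Apex libraries held 11954021 to 21095025 reads. Libraries 1 and 3 of fld, and 1 and 2 of Col0 in set 3, differed by less than sampling noise (chi-square per degree of freedom 0.944 and 0.605) and were kept as separate samples. The reads of sets 1 and 2 were recovered from deposited values and may be adjusted counts and not raw reads. Those values were nearly tied by 1 linear relation, given under processing, which also makes seedling p-values too small. Seedling values are signal, counts divided by the authors with 1 factor per library. On that scale most genes exceeded Col0 in every mutant but pol2a: the median of all genes moved by 1.66 (log2) in fld and 1.23 in ld of set 1, by 1.48 in ld pol2a, 0.56 in ld and 0.06 in pol2a of set 2, and by 0.69 in ld of set 3. Changes are therefore given as log2 changes relative to that shift, with the standard error of the fit, beside the signal itself. FLD took 0.352 to 0.953 CPM (the share of a library, scaled to the same total in each) in fld and 9.03 to 11.4 in Col0. LD transcripts were not reduced in every set labelled ld: LD took 26.5 to 29.0 CPM in ld and 10.3 to 10.8 in Col0 of set 1, 15.8 to 17.4 in ld and 13.8 to 16.3 in Col0 of set 2, 14.7 to 16.7 in ld and 18.2 to 20.5 in Col0 of set 3, and 4.23 to 11.2 in ld and 14.8 to 21.4 in Col0 apices. With the alleles unknown, these levels do not check the ld and pol2a labels, and ld and pol2a below mean the libraries so labelled. POL2A took 22.0 to 24.3 CPM in pol2a and 15.1 to 15.4 in Col0 seedlings of set 2.

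In fld seedlings the Ib bHLH genes and the genes of the reduction pathway stood farthest above Col0. BHLH38 had a signal of 603, 597 and 508 in fld, against 20.6, 13.4 and 21.1 in Col0. This is 31.0 times the Col0 mean as signal and 10.7 times as a share of the library, and the libraries did not overlap. BHLH100 had 767, 664 and 643 in fld and 24.8, 23.3 and 25.0 in Col0, and BHLH39 had 412, 406 and 392 in fld and 21.8, 25.0 and 22.2 in Col0. BHLH101 was the lowest of the 4 in fld, with 301, 296 and 284 in fld and 22.4, 25.0 and 26.6 in Col0. Relative to the shift the 4 stood 3.29 ± 0.15, 3.14 ± 0.11, 2.45 ± 0.11 and 1.895 ± 0.12 above Col0 in the order BHLH38, BHLH100, BHLH39 and BHLH101. AT3G56960, which overlaps BHLH38, was higher by 1.05 ± 0.16, and AT5G04140, which overlaps BHLH101, by 0.09 ± 0.03. In the other seedlings AT3G56960 stood at 1.03 ± 0.16 in ld of set 1 and 0.04 ± 0.06 in ld of set 3. In set 2 it stood at -0.53 ± 0.19 in ld, -0.56 ± 0.19 in pol2a and 0.31 ± 0.19 in ld pol2a, where its libraries overlapped Col0.

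The bHLH factors outside subgroup Ib were closer to the rest of the transcriptome. FIT, the master regulator of uptake, had 143, 109 and 104 in fld and 28.3, 33.1 and 28.3 in Col0. Relative to the shift that was 0.31 ± 0.15, and the scaled libraries of fld and Col0 overlapped. PYE had 196, 190 and 189 in fld and 28.3, 37.8 and 28.8 in Col0, a difference of 0.94 ± 0.12 with no overlap.

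Among the uptake genes FRO2 and CYP82C4 stood farther from Col0 than IRT1 did. FRO2 had 2199, 2000 and 2078 in fld and 135, 130 and 134 in Col0, a difference of 2.31 ± 0.06. CYP82C4 had 1741, 1631 and 1673 in fld and 101, 110 and 108 in Col0, a difference of 2.32 ± 0.05. The iron transporter IRT1 was the most abundant member in signal, with 5946, 5375 and 5251 in fld and 753, 715 and 726 in Col0, and its difference was 1.26 ± 0.04. OPT3 had 1461, 1255 and 1275 in fld and 263, 259 and 244 in Col0, a difference of 0.72 ± 0.06. In 9 of the 10 members, FIT being the exception, the scaled libraries of fld all lay above those of Col0, as they did in 31.8% of all 19069 genes tested. The median difference of the members was 2.104, beside 0.02 over all genes. The members were chosen on this contrast, so nothing is read from that count.

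**Figure D1:**
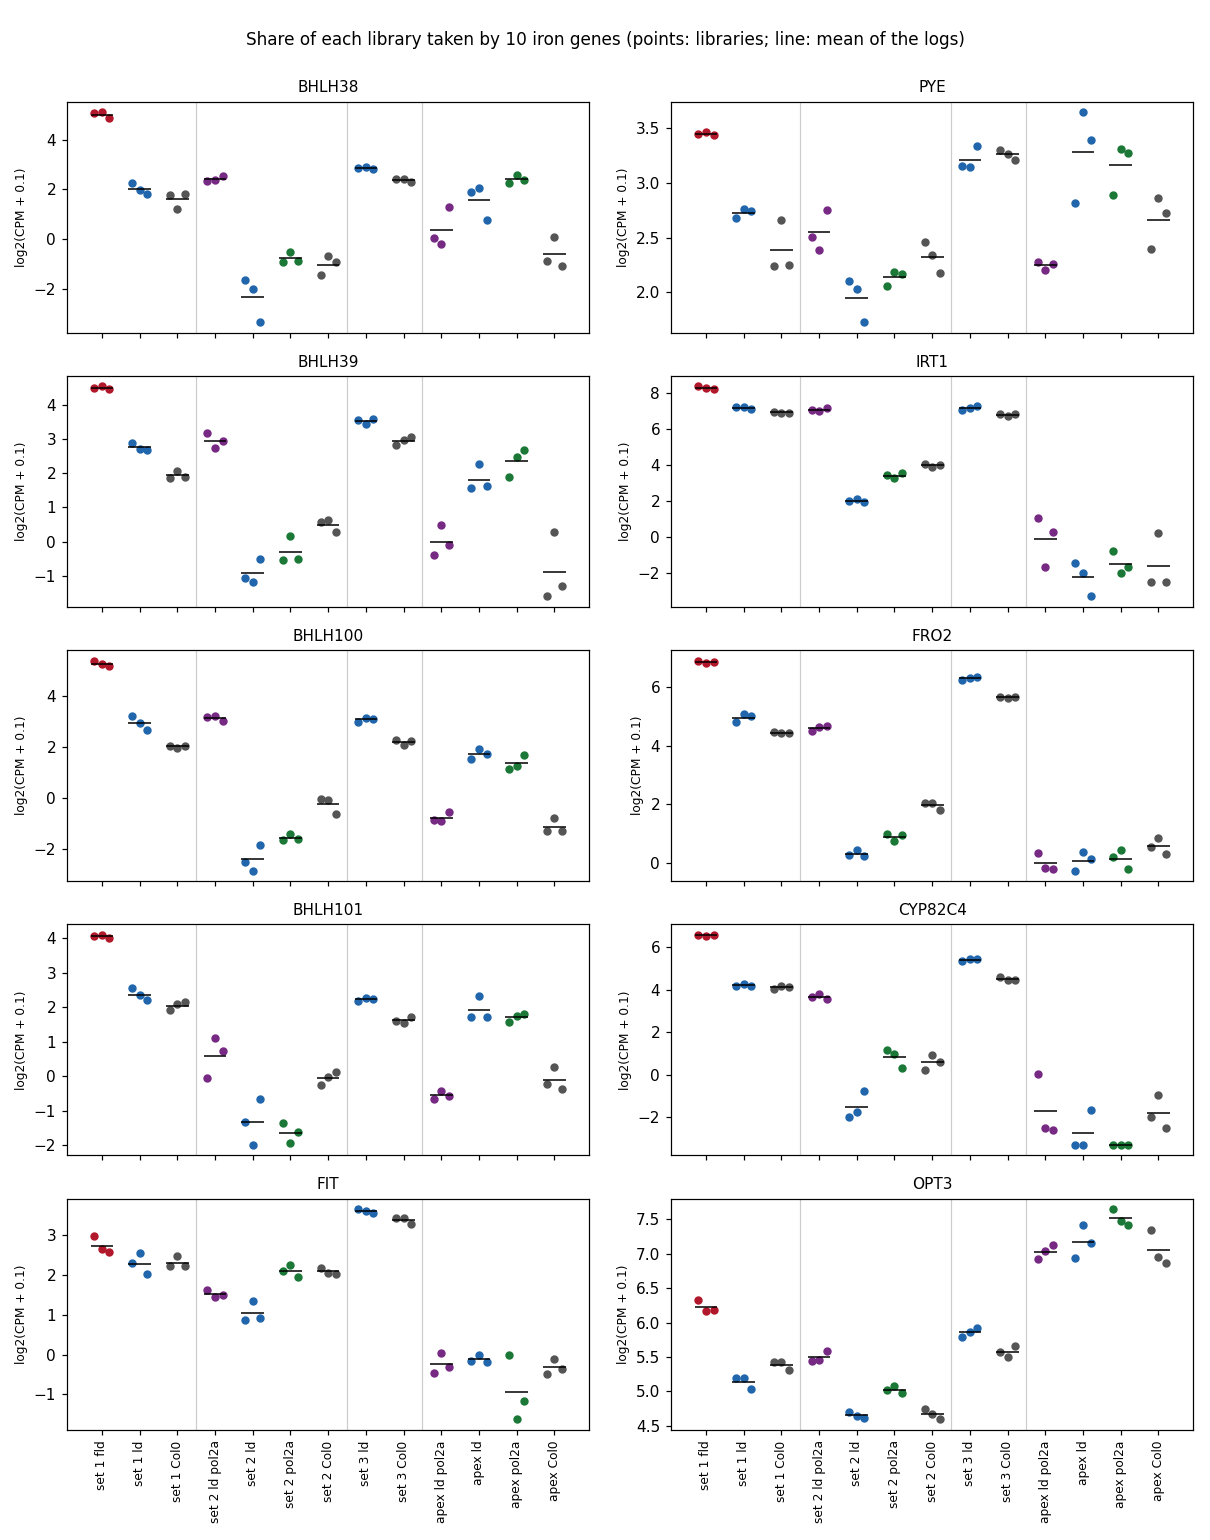
Level of each of the 10 genes in every library, as log2(CPM + 0.1), where CPM is the share of the library (TMM-scaled in apices). Points are libraries, lines are the means of the logs, colours are genotypes, and grey lines part the 4 tables; in set 1 the fld libraries of BHLH38, BHLH39, BHLH100 and FRO2 lie above all ld and Col0 libraries, and in apices the 4 Ib genes are high in ld and in pol2a.

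Relative to the shift, ld libraries of BHLH39, BHLH100, IRT1 and FRO2 lay above Col0 in sets 1 and 3 and below it in set 2. Those of BHLH38 and BHLH101 overlapped Col0 in set 1, lay above it in set 3 and below it in set 2. In set 1 BHLH38 had 60.9, 53.8 and 45.8 in ld, beside the Col0 values given above, and relative to the shift it stood at 0.31 ± 0.15 with overlapping libraries. BHLH39 had 95.0, 88.8 and 82.7, and BHLH100 had 119, 106 and 83.8 in ld. Both lay above Col0 without overlap, by 0.70 ± 0.11 and 0.82 ± 0.11. BHLH101, with 74.3, 68.8 and 59.2 in ld, overlapped Col0 after scaling and differed by 0.20 ± 0.12.

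The remaining members differed little from the shift in ld of set 1. FRO2 had 361, 466 and 429 in ld and stood at 0.40 ± 0.06, and IRT1 had 1917, 2055 and 1777 and stood at 0.15 ± 0.04, neither with overlap. FIT, with 62.1, 80.0 and 52.5, PYE, with 81.6, 92.5 and 87.2, and CYP82C4, with 234, 264 and 240, overlapped Col0 after scaling. OPT3 had 471, 508 and 429 in ld: its signal was higher than in Col0, by 0.87 ± 0.07, and relative to the shift it was lower by 0.37 ± 0.06. Libraries of 4 members lay above Col0 after scaling, as did those of 27.6% of all genes, and 1 lay below, as did 29.4%. Set directly against fld, ld was lower in all 10 members without overlap. The difference relative to the shift was -2.97 ± 0.15 for BHLH38, -2.35 ± 0.05 for CYP82C4 and -0.45 ± 0.15 for FIT, and ld libraries lay below fld for 27.8% of all genes.

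In set 3 all members but PYE were above Col0 in ld after scaling. BHLH38 had 303, 316 and 294 in ld and 138, 135 and 125 in Col0, and BHLH39 had 492, 459 and 500 in ld and 182, 202 and 212 in Col0. BHLH100 had 333, 375 and 360 in ld and 125, 109 and 119 in Col0, and BHLH101 had 188, 201 and 192 in ld and 77.2, 73.3 and 83.3 in Col0. These 4 stood 0.51 ± 0.07, 0.59 ± 0.07, 0.90 ± 0.07 and 0.62 ± 0.08 above Col0 relative to the shift. CYP82C4 had 1705, 1813 and 1804 in ld and 641, 573 and 569 in Col0, a difference of 0.89 ± 0.04. FRO2 had 3228, 3368 and 3461 in ld and 1343, 1303 and 1328 in Col0, a difference of 0.65 ± 0.03.

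IRT1, OPT3, FIT and PYE stood nearer to the shift in set 3 than the other 6 members did. IRT1 had 5520, 6032 and 6342 in ld and 2909, 2733 and 2881 in Col0, a difference of 0.38 ± 0.04. OPT3 had 2346, 2464 and 2518 in ld and 1240, 1171 and 1301 in Col0, and FIT had 532, 515 and 492 in ld and 280.4, 280.7 and 252 in Col0. They differed by 0.29 ± 0.04 and 0.23 ± 0.06. PYE, with 372, 372 and 418 in ld and 257, 248 and 237 in Col0, had the signal of the general shift, at -0.04 ± 0.06. Libraries of 9 members lay above Col0 without overlap, as did those of 24.7% of all 20998 genes tested.

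In set 2 the direction was turned round. IRT1 had 75.9, 80.7 and 69.5 in ld and 199, 176 and 189 in Col0, lower by 1.87 ± 0.08 relative to the shift and also lower as signal. FRO2 had 21.9, 24.2 and 20.5 in ld and 48.7, 49.4 and 40.3 in Col0, and its difference was -1.57 ± 0.13. CYP82C4 had 2.92, 3.67 and 9.12 in ld and 13.0, 22.0 and 16.8 in Col0, a difference of -2.18 ± 0.30. Its ld values rest on few reads, and leaving out each library gave differences from -2.60 to -1.90. These 3 uptake genes were thus low in every ld library of the set.

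The Ib genes of set 2 were near the limit of detection outside ld pol2a. BHLH38 had 3, 4 and 0 recovered reads in the ld libraries and 4, 13 and 7 in the Col0 libraries, and BHLH100 had 1, 1 and 3 reads in ld and 13, 21 and 9 in Col0. A count of 0 allows up to 3 reads in a library, if the recovered counts are raw. BHLH39 had a signal of 7.30, 6.60 and 11.4 in ld and 17.1, 17.6 and 13.2 in Col0, a difference of -1.40 ± 0.26, and BHLH101 had 5.84, 2.93 and 10.3 in ld and 8.93, 10.8 and 11.7 in Col0. BHLH38, BHLH100 and BHLH101 passed the minimum mean signal of 10 in set 2 only through ld pol2a. FIT had 33.6, 47.7 and 34.2 in ld and 54.4, 49.4 and 47.6 in Col0, at -0.95 ± 0.16, while PYE and OPT3 overlapped Col0 at -0.26 ± 0.13 and 0.10 ± 0.06, although as signal PYE was higher in ld, with 81.7, 77.0 and 61.5 in ld and 65.8, 60.2 and 52.7 in Col0. Libraries of 8 members, the 3 that passed only through ld pol2a among them, lay below Col0 after scaling, as did those of 20.5% of all 19444 genes, and nothing is read from that count.

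The Col0 seedlings themselves differed between the sets in these genes. IRT1 took 119 ± 2.96 CPM in Col0 of set 1, 15.6 ± 0.920 in set 2 and 109 ± 3.54 in set 3 (SD, n = 3 each). FRO2 took 21.7 ± 0.273, 3.82 ± 0.383 and 50.8 ± 0.703 CPM, and BHLH100 took 3.97 ± 0.115, 0.756 ± 0.176 and 4.51 ± 0.285 CPM in the same order. Among the seedling sets, the one with the lowest wild-type level was the one in which ld lay below Col0. In Col0 apices BHLH100 took still fewer CPM, and ld stood above Col0 there by 3.11 (log2). IRT1 and FRO2, which had few reads in apices, stood at -1.49 and -0.54 in ld. The sets were scaled apart and no test was made across them.

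**Figure D2:**
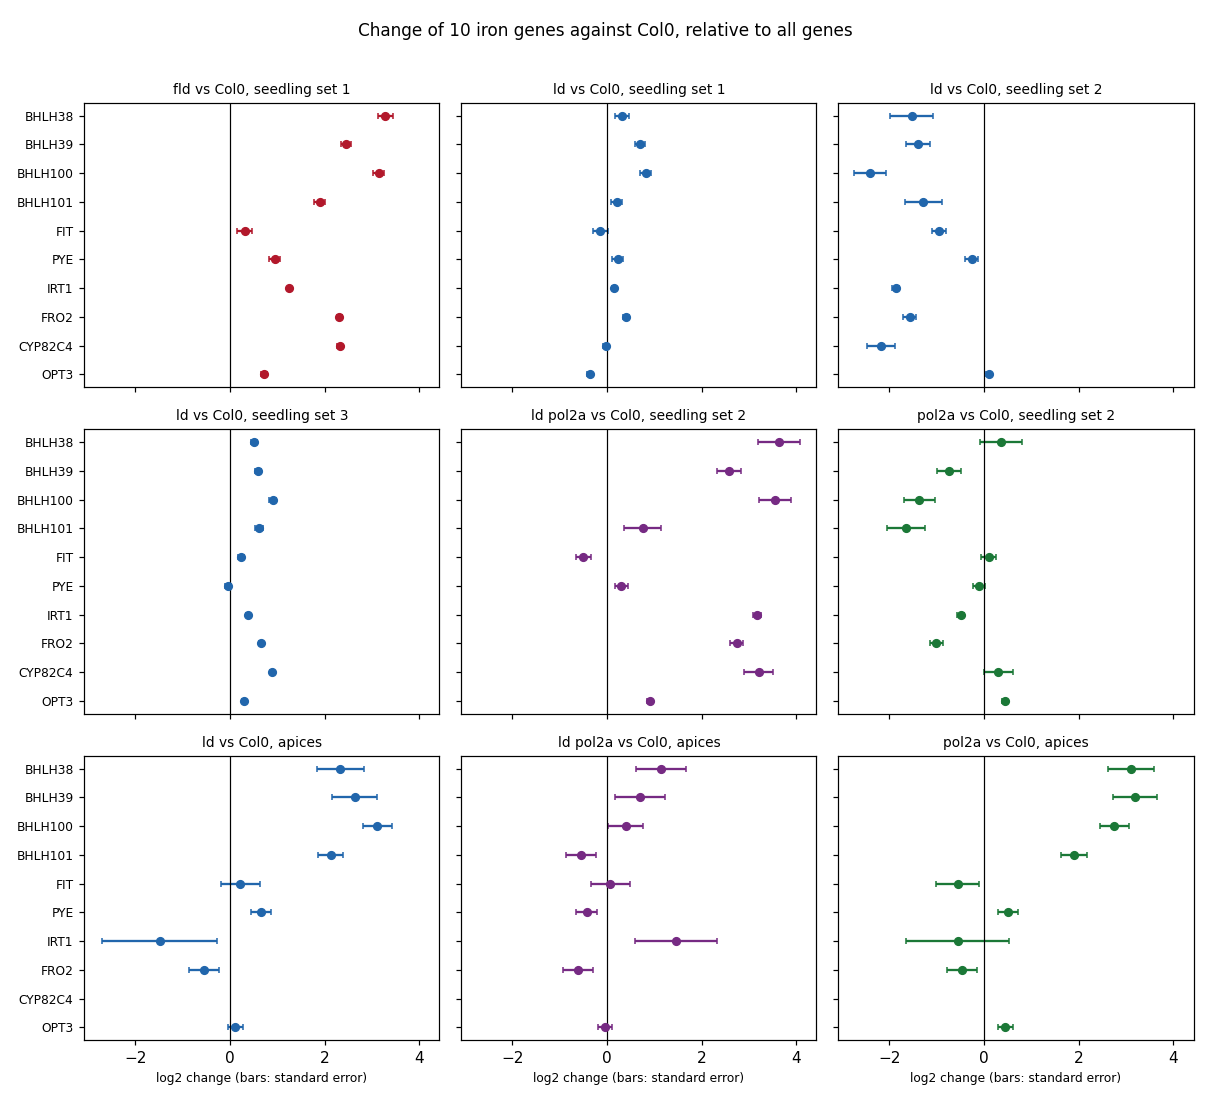
Log2 change of each gene against the Col0 libraries of its own table. It is relative to the shift of all genes in seedlings and on the TMM scale in apices. Bars are the standard error of the fit in seedlings. In apices they are the size of the change divided by the square root of the F statistic, an approximate standard error. The Ib genes, IRT1, FRO2 and CYP82C4 stand right of 0 in fld and in ld pol2a seedlings and left of 0 in ld of set 2; CYP82C4 was not fitted in apices.

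The ld pol2a seedlings of set 2 had high levels of the genes that were low in ld of the same set. IRT1 had 4518, 4566 and 5114 in ld pol2a, against 75.9, 80.7 and 69.5 in ld, 143, 123 and 151 in pol2a and 199, 176 and 189 in Col0. FRO2 had 787, 888 and 940 in ld pol2a and 25.6, 20.7 and 24.1 in pol2a, and CYP82C4 had 438, 483 and 433 in ld pol2a and 28.5, 24.3 and 15.0 in pol2a. Relative to the shift, ld pol2a stood above Col0 by 3.17 ± 0.08, 2.74 ± 0.13 and 3.20 ± 0.30 in IRT1, FRO2 and CYP82C4.

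BHLH38, BHLH39 and BHLH100 also stood high in ld pol2a. BHLH38 had 176, 179.9 and 209 in ld pol2a and 5.91, 7.85 and 6.02 in pol2a. BHLH39 had 316, 234 and 278 in ld pol2a and 7.88, 13.6 and 8.02 in pol2a. BHLH100 had 318, 331 and 292 in ld pol2a and 2.95, 3.57 and 3.01 in pol2a. They stood at 3.64 ± 0.45, 2.58 ± 0.26 and 3.55 ± 0.33 above Col0. BHLH101 was lower and more variable, with 30.6, 72.5 and 57.4 in ld pol2a and 3.94, 2.14 and 3.01 in pol2a, and relative to the shift its ld pol2a libraries overlapped Col0 at 0.75 ± 0.40.

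OPT3, PYE and FIT were the remaining members. OPT3 had 1521, 1559 and 1740 in ld pol2a, 503, 482 and 466 in ld, 437, 443 and 416 in pol2a and 326, 308 and 286 in Col0, and stood at 0.90 ± 0.06. PYE, with 196, 183 and 242 in ld pol2a, overlapped Col0 at 0.31 ± 0.13. FIT had 104, 94.3 and 99.2 in ld pol2a, which was higher than Col0 as signal by 0.96 ± 0.16 and lower relative to the shift by 0.50 ± 0.16. Libraries of 7 members, BHLH38 and BHLH100 among them, lay above Col0 after scaling, as did those of 32% of all genes, and nothing is read from that count. The effect of ld with pol2a minus its effect without pol2a was largest for BHLH100, at 7.32 ± 0.47, and lay between 3.68 and 5.52 for BHLH101, BHLH38, BHLH39, CYP82C4, FRO2 and IRT1. It was 0.36 ± 0.22 for FIT, 0.37 ± 0.08 for OPT3 and 0.67 ± 0.19 for PYE. This difference is built from the genotypes that chose the members and was not tested for them. For BHLH38, BHLH100 and BHLH101, which passed the minimum signal only through ld pol2a, it rests on few reads in the other groups, so its size is uncertain.

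The choice of members did not name pol2a, and limma with Benjamini-Hochberg adjustment over all genes was used for pol2a seedlings. The Col0 libraries are those of the ld and ld pol2a contrasts, so these p-values are not independent of the choice. Relative to the shift FRO2 fell by 1.01 ± 0.13 (adjusted p = 1.75e-06) and IRT1 fell by 0.49 ± 0.08 (adjusted p = 2.27e-05). BHLH39 fell by 0.74 ± 0.26 (adjusted p = 0.017). BHLH39 lost its call without pol2a library 1 (adjusted p = 0.078), pol2a library 3 (0.0606) or Col0 library 2 (0.0563) in the same limma fit. OPT3 rose by 0.44 ± 0.06 (adjusted p = 9.99e-07), with all pol2a libraries above all Col0 libraries. FIT with 57.1, 61.4 and 50.1 in pol2a, PYE with 55.1, 58.5 and 58.1, and CYP82C4 did not pass. BHLH38, BHLH100 and BHLH101, which were in the fit only through ld pol2a, are given without a test. They stood at 0.36 ± 0.45, -1.37 ± 0.33 and -1.65 ± 0.40, and the values of BHLH100 and BHLH101 rest on 3 to 5 reads in pol2a and 9 to 22 reads in Col0 libraries.

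In shoot apices the Ib genes were high in both single mutants and low in the double mutant. BHLH38 had 21, 11 and 37 reads in ld pol2a, 54, 54 and 23 in ld, 59, 79 and 74 in pol2a and 6, 14 and 5 in Col0. BHLH39 had 15, 18 and 13 in ld pol2a, 43, 63 and 42 in ld, 45, 73 and 91 in pol2a and 3, 16 and 4 in Col0. Every ld and every pol2a library lay above every Col0 library in both genes, and the ld pol2a libraries overlapped Col0 after scaling. BHLH100 had 10, 6 and 9 in ld pol2a, 42, 50 and 45 in ld, 26, 31 and 45 in pol2a and 4, 7 and 4 in Col0. BHLH101 had 12, 9 and 9 in ld pol2a, 48, 66 and 45 in ld, 36, 44 and 49 in pol2a and 10, 16 and 9 in Col0, so that after scaling its ld pol2a libraries lay below those of Col0.

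The comparison of pol2a with Col0 apices was not named in the choice but shares its Col0 libraries with ld and ld pol2a apices. It was made with edgeR's quasi-likelihood test and adjustment over 18705 genes. The ± beside a log2 change in apices is an approximate standard error, worked back from the test statistic. BHLH39 rose by 3.19 ± 0.46 (adjusted p = 0.00172) and BHLH38 by 3.10 ± 0.48 (adjusted p = 0.00281). BHLH100 stood at 2.76 ± 0.31 and BHLH101 at 1.899 ± 0.27 above Col0. Both passed the filter on low counts only through ld or pol2a, where they were high, and are given without a test. In CPM after TMM scaling BHLH39 averaged 5.12 ± 1.37 in pol2a and 0.545 ± 0.485 in Col0, and BHLH100 averaged 2.51 ± 0.543 in pol2a and 0.363 ± 0.103 in Col0 (SD, n = 3 each). Of the 9 members in the fit 4 were called, BHLH100 and BHLH101 among them, beside 6.04% of all genes called and 3.7% called higher. Nothing is read from that count. The calls of BHLH38 and BHLH39 held in every alternative run. An alternative chosen after seeing the data left out the library with the most root marker reads in each group. The root marker sums that remained were still 1153 and 1051 CPM in pol2a and 690 and 659 in Col0. That run therefore cannot test a root difference between the groups, and nothing is read from it. AT3G56960 stood at -0.20 ± 0.75 and AT5G04140 fell by 0.65 ± 0.16 (adjusted p = 0.0353 in edgeR) in the same comparison.

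In ld apices, described without a test, the same genes stood above Col0 by 2.33 ± 0.50 for BHLH38, 2.63 ± 0.47 for BHLH39, 3.11 ± 0.30 for BHLH100 and 2.13 ± 0.27 for BHLH101. In ld pol2a apices they stood at 1.14 ± 0.53, 0.69 ± 0.53, 0.39 ± 0.37 and -0.55 ± 0.32, and single libraries moved these values. BHLH38 stood at 0.49 without ld pol2a library 3 and 1.66 without Col0 library 2. BHLH39 stood at 0.33 without Col0 library 1, 0.38 without Col0 library 3 or ld pol2a library 2, and 1.72 without Col0 library 2. Without the library with the most root marker reads in each group, an alternative chosen after seeing the data, BHLH39 stood at 0.12. BHLH100 stood at 0.23 without ld pol2a library 3, 0.25 without Col0 library 3 and 0.63 without Col0 library 2, and BHLH101 at -0.33 without Col0 library 2. The effect of ld with pol2a minus its effect without pol2a was -4.28 ± 0.65 for BHLH38, -5.13 ± 0.63 for BHLH39, -5.48 ± 0.42 for BHLH100 and -4.58 ± 0.38 for BHLH101. In the seedlings of set 2 the same 4 differences were 4.80, 4.72, 7.32 and 3.68, of the opposite sign. There the values of BHLH38, BHLH100 and BHLH101 rest on few reads outside ld pol2a. The 2 tissues were processed in separate tables and this contrast was not tested. Libraries of ld lay above Col0 in 4 members, as in 8.75% of all genes. Libraries of ld pol2a lay below Col0 in BHLH101 and PYE, as in 22.2% of all genes.

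The root uptake genes were nearly silent in apices. FRO2 had 26, 11 and 12 reads in ld pol2a, 11, 16 and 14 in ld, 13, 17 and 11 in pol2a and 18, 25 and 15 in Col0. IRT1 had 44, 3 and 17 in ld pol2a, 4, 2 and 0 in ld, 6, 2 and 3 in pol2a and 1, 15 and 1 in Col0, so that single libraries set its group means. CYP82C4 had 21, 1 and 1 reads in ld pol2a, 0, 0 and 3 in ld, no read in pol2a and 2, 6 and 1 in Col0, and was too low to be tested. The first ld pol2a library held the most reads of IRT1 and of CYP82C4. FIT ranged between 3 and 14 reads over the 12 libraries.

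OPT3 and PYE were expressed in apices without a call in pol2a. OPT3 had 2718, 1837 and 2185 reads in ld pol2a, 1835, 2305 and 2018 in ld, 2496, 2397 and 2460 in pol2a and 2138, 1801 and 1538 in Col0. It took 183 ± 15.6 CPM in pol2a apices and 134 ± 24.5 in Col0 apices (SD, n = 3 each), a difference of 0.45 ± 0.15 (edgeR adjusted p = 0.104) although the libraries did not overlap. PYE had 107, 63 and 73 in ld pol2a, 104, 167 and 147 in ld, 91, 132 and 138 in pol2a and 68, 104 and 86 in Col0, with 0.51 ± 0.21 in pol2a (edgeR adjusted p = 0.192).

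**Figure D3:**
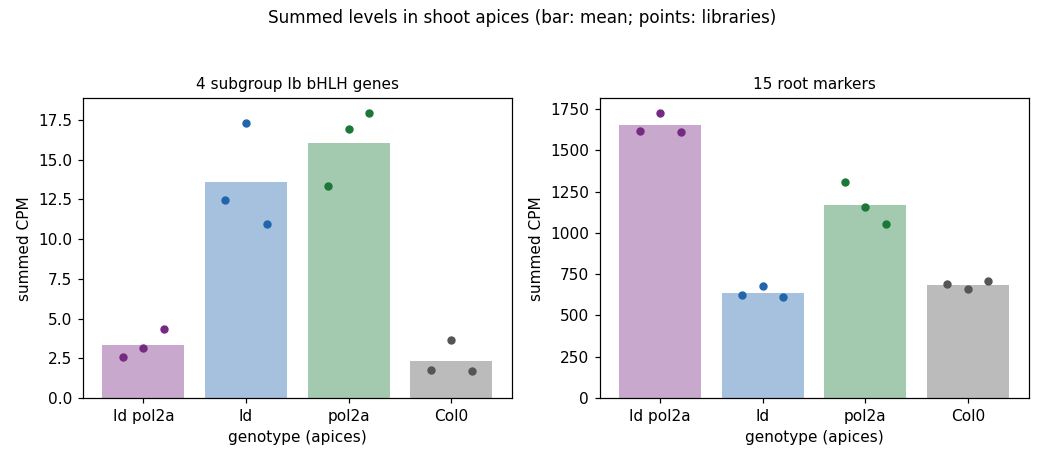
Summed CPM of the 4 Ib genes (left) and of 15 root markers (right) in each apex library, with points for libraries and bars for group means, from 0. The Ib sum lies at 10.9 to 17.3 in ld and 13.3 to 18.0 in pol2a and at 1.67 to 3.65 in Col0. The root sum is highest in ld pol2a and is also higher in pol2a than in Col0.

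Markers of other tissues were read beside these results. Summed over 15 root markers, apices took 1610 to 1727 CPM in ld pol2a, 610 to 676 in ld, 1051 to 1309 in pol2a and 659 to 710 in Col0, nearly all of it from PYK10, a root beta-glucosidase, and SHR. PYK10 took 1578 ± 67.3 CPM in ld pol2a apices and 620 ± 22.8 in Col0 apices, and SHR took 31.8 ± 1.69 and 28.0 ± 3.24 in the same groups (SD, n = 3 each). The root sum of ld apices overlapped that of Col0, and those of pol2a and ld pol2a apices were higher. Up to 3 of the 15 markers were at 0 in an apex library. In seedlings the root sum was 3452 to 3551 CPM in fld, 3343 to 3416 in ld and 4754 to 4802 in Col0 of set 1, so fld stood below Col0 there. In set 2 it was 4428 to 4778 in ld pol2a, 4836 to 5149 in ld, 6093 to 6355 in pol2a and 4659 to 4805 in Col0, and in set 3 it was 3533 to 3725 in ld and 3106 to 3224 in Col0. Summed over 5 shoot meristem markers, apices took 21.9 to 23.6 CPM in ld pol2a, 12.7 to 14.7 in ld, 22.2 to 24.5 in pol2a and 9.85 to 12.1 in Col0. Summed over 6 leaf markers, they took 37998 to 42806 CPM in ld pol2a, 40459 to 69663 in ld, 55249 to 62860 in pol2a and 50215 to 67102 in Col0. The part of these levels in the values of the iron genes was not tested. In such bulk samples, fewer cells of a type and less RNA per cell cannot be told apart.

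Per length of transcript, the order of the members differed between fld and Col0 below IRT1. In TPM (reads per exon length, scaled to a fixed total), IRT1 led in fld at 302 ± 13.2, then CYP82C4 at 76.3 ± 0.793, FRO2 at 62.8 ± 1.52, BHLH100 at 51.0 ± 3.66, BHLH38 at 45.0 ± 3.95 and OPT3 at 42.1 ± 2.52, while FIT was last at 7.33 ± 1.13 (SD, n = 3 each). BHLH38 and OPT3 did not differ beyond their spread there. In Col0 of set 1 IRT1 was also highest, at 118 ± 2.85, followed by OPT3 at 24.0 ± 1.04, CYP82C4 at 14.3 ± 0.686 and FRO2 at 11.8 ± 0.157 (SD, n = 3 each). The 6 bHLH members lay together below them, between 4.29 ± 0.988 for BHLH38 and 5.79 ± 1.02 for PYE, and did not differ beyond their spread from their neighbours in that order. In Col0 apices OPT3 stood highest, at 71.8 ± 15.0 TPM, and IRT1 had 0.391 ± 0.562.

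Over the 27 seedling libraries, each gene centred on the Col0 mean of its set, the members followed the mean profile of the 4 Ib genes to different degrees. Pearson's r was 0.99 for FRO2, 0.92 for IRT1 and CYP82C4, 0.81 for PYE, 0.62 for OPT3 and 0.31 for FIT. These are descriptions over libraries that share genotypes and Col0 means. Of 18822 other genes with a mean signal of at least 10 in every set, the 6 most like that profile were AT5G05250 (r = 0.98), AT1G25520 (0.94), VDAC1 (0.93), AT1G47395 (0.92), PWD (0.92) and AT5G47930 (0.92). The profile of AT5G05250 stood at 1.08 in fld, 0.04 in ld of set 1, -0.90 in ld, -0.32 in pol2a and 1.24 in ld pol2a of set 2, and 0.29 in ld of set 3 on the log2 scale. VDAC1, which encodes an anion channel of the outer mitochondrial membrane, moved far less, with 0.27 in fld and 0.22 in ld pol2a.

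Outside the members, 56 further genes of iron regulation, uptake, distribution and storage were listed, and those that passed the filter on low values were tested in each comparison. In fld seedlings 25 rose and 12 fell of 50 tested relative to the shift, beside 29.6% and 29.1% of all genes, and their median change was 0.28, beside 0.02 over all genes. Of the distribution genes 10 rose and 5 fell of 22, and of the storage genes none rose and 3 fell of 5. The regulators (9 rose and 2 fell of 14) and the uptake genes (6 and 2 of 9) included AT1G47395, which rose by 3.05 ± 0.13 (limma adjusted p = 2.62e-14), and the ferric reductase FRO3, which rose by 1.12 ± 0.05 (adjusted p = 1.55e-14). AT3G07720 rose by 0.97 ± 0.04 (limma adjusted p = 9.54e-14). AHA2, a plasma membrane proton pump of roots, fell by 0.61 ± 0.03 relative to the shift (limma adjusted p = 5.84e-14), while its signal was higher, at 6859 ± 269 in fld and 3308 ± 77.1 in Col0 (SD, n = 3 each). On the signal scale itself 48 of the 50 rose, all 5 storage genes among them, and none fell, where 98.8% and 0.22% of all genes did.

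In ld of set 1, 14 rose and 20 fell of 50, beside 25.6% and 27.5% of all genes. On the signal scale 46 rose and none fell, beside 97.1% and 0.414%. BHLH121, a bHLH factor upstream of the Ib genes, rose by 0.69 ± 0.05 (limma adjusted p = 1.45e-10). AHA2 fell by 0.63 ± 0.03 (adjusted p = 5e-14), the nicotianamine synthase NAS1 by 0.88 ± 0.05 (1.2e-12) and NAI1, also named BHLH20, by 0.80 ± 0.06 (6.37e-10) in limma, although the signal of all 3 was higher than in Col0. Against fld, ld was lower in 24 and higher in 8 of 50, beside 23.1% and 22.3% of all genes, and on the signal scale lower in 40 and higher in 3, beside 71.4% and 2.54%. AT1G47395 was lower by 3.27 ± 0.13 (limma adjusted p = 1.71e-14), NAS2 by 1.64 ± 0.07 (8.74e-14), NAS1 by 1.18 ± 0.05 (1.36e-14) and AT3G07720 by 0.91 ± 0.04 (5.62e-13).

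In ld of set 2, 13 rose and 13 fell of 48, beside 18.6% and 15.9% of all genes. Of the regulators none rose and 4 fell of 14, of the uptake genes none rose and 4 fell of 8, and of the distribution genes 9 rose and 5 fell of 21. On the signal scale 37 of the 48 rose and 5 fell, beside 79.8% and 1.71% of all genes. There 9 regulators rose and 2 fell, 7 uptake genes rose and none fell, and 17 distribution genes rose and 3 fell. Genes of ferritins, which store iron in plastids, were among those that rose: FER1 rose by 0.91 ± 0.04 (limma adjusted p = 3.84e-13), FER4 by 0.53 ± 0.05 (1.18e-07) and FER3 by 0.46 ± 0.04 (8.08e-08), and 4 of the 5 storage genes rose. The ferritin gene FER2 was not called, at -0.47 ± 0.19 (limma adjusted p = 0.0671), and its ld libraries all lay below Col0 after scaling. NAS2 fell by 1.23 ± 0.12 (limma adjusted p = 1.47e-07). FER1 had a signal of 5594 ± 162 in ld and 2016 ± 86.5 in Col0 (SD, n = 3 each). In set 3, 26 rose and 7 fell of 52, beside 19.2% and 19.3% of all genes, with 8 higher and 1 lower of 15 regulators and 6 and 1 of 9 uptake genes. On the signal scale 51 of the 52 rose and none fell, beside 94.4% and 0.481%. AT1G47395 rose by 1.00 ± 0.09 (limma adjusted p = 4.59e-06), VTL5 by 0.55 ± 0.03 (2.86e-07), the coumarin exporter ABCG37 by 0.34 ± 0.03 (6.59e-06) and FER1 by 0.31 ± 0.02 (2.02e-06).

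In ld pol2a seedlings 19 rose and 11 fell of 48, beside 29.2% and 28.3% of all genes, and on the signal scale all 48 rose, beside 97.9% higher and 0.35% lower. NAS1 rose by 1.12 ± 0.06 (limma adjusted p = 6.96e-12). FER1 fell by 0.89 ± 0.04 (adjusted p = 7.47e-14), the metal transporter NRAMP1 by 1.29 ± 0.05 (1.3e-14) and VTL5 by 1.29 ± 0.08 (2.99e-11) in limma, relative to the shift, and the signal of all 3 was higher than in Col0. In pol2a seedlings 36 of 48 were called, beside 59.9% of all genes, and 19 rose and 17 fell, beside 30% and 29.8%. The nicotianamine synthases NAS2 and NAS1 rose by 2.49 ± 0.12 (limma adjusted p = 3.36e-13) and 1.82 ± 0.06 (1.2e-15), FER3 by 0.85 ± 0.04 (6.65e-13) and AHA2 by 0.83 ± 0.04 (2.6e-13). NAS2 had a signal of 284 ± 24.7 in pol2a and 48.4 ± 8.66 in Col0 (SD, n = 3 each). The effect of ld with pol2a minus its effect without pol2a was positive in 15 and negative in 18 of 48, beside 25.3% and 26.2% of all genes, and on the signal scale positive in 38 and negative in 4, beside 86.5% and 1.57%. It was -2.19 ± 0.05 for FER1 (limma adjusted p = 7.22e-17), opposite in sign to that of the Ib genes.

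In apices few of the other iron genes passed. In pol2a apices 6 of 41 were called by edgeR, 4 higher and 2 lower, beside 3.7% and 2.33% of all genes. AT1G47395 rose by 2.00 ± 0.24 (edgeR adjusted p = 0.000414), AT2G30766 by 1.93 ± 0.22 (0.000346) and AT1G47400 by 1.82 ± 0.27 (0.00176), and FER1 fell by 1.37 ± 0.27 (0.0105). AT1G47395 had 263 ± 43.1 reads in pol2a and 67.0 ± 20.7 in Col0, and FER1 took 64.3 ± 25.1 CPM in pol2a and 167 ± 21.4 in Col0 (SD, n = 3 each). AT2G30766 shares 330 exon bases with a gene on the opposite strand. In ld apices 3 of 41 rose, beside 0.38% of all genes: AT1G47395 by 1.40 ± 0.24 (edgeR adjusted p = 0.0268), AT1G47400 by 1.36 ± 0.27 (0.0431) and FRO3 by 1.07 ± 0.22 (0.047). None of the 41 was called when only ld and Col0 entered the fit (edgeR, 9 at an unadjusted p under 0.05), or without ld library 1, ld library 2, Col0 library 1 or Col0 library 2, and 13 were called without ld library 3. In ld pol2a apices 5 rose and 4 fell of 41, beside 14.8% and 10.9% of all genes. The number called was 5 without Col0 library 3, ld pol2a library 2 or ld pol2a library 3, 15 with only the groups compared, and 3 without the libraries with the most root marker reads. FRO6 and FRO7, ferric reductases of green tissue, fell by 3.26 ± 0.29 (edgeR adjusted p = 2.48e-05) and 2.21 ± 0.31 (0.000459), and FRO6 took 3.02 ± 1.19 CPM in ld pol2a and 30.0 ± 4.78 in Col0 (SD, n = 3 each). AHA2 rose by 0.63 ± 0.15 (edgeR adjusted p = 0.00832) and NRAMP3, a vacuolar metal exporter, by 0.53 ± 0.10 (0.00327). The effect of ld with pol2a minus its effect without pol2a was positive in 2 and negative in 7 of 41, beside 5.13% and 2.41% of all genes. It was -2.82 ± 0.33 for AT1G47395 (edgeR adjusted p = 0.00104), -2.76 ± 0.37 for AT1G47400 (0.00215), -2.42 ± 0.31 for AT2G30766 (0.00183) and -2.01 ± 0.38 for FRO6 (0.00981).

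**Figure D4:**
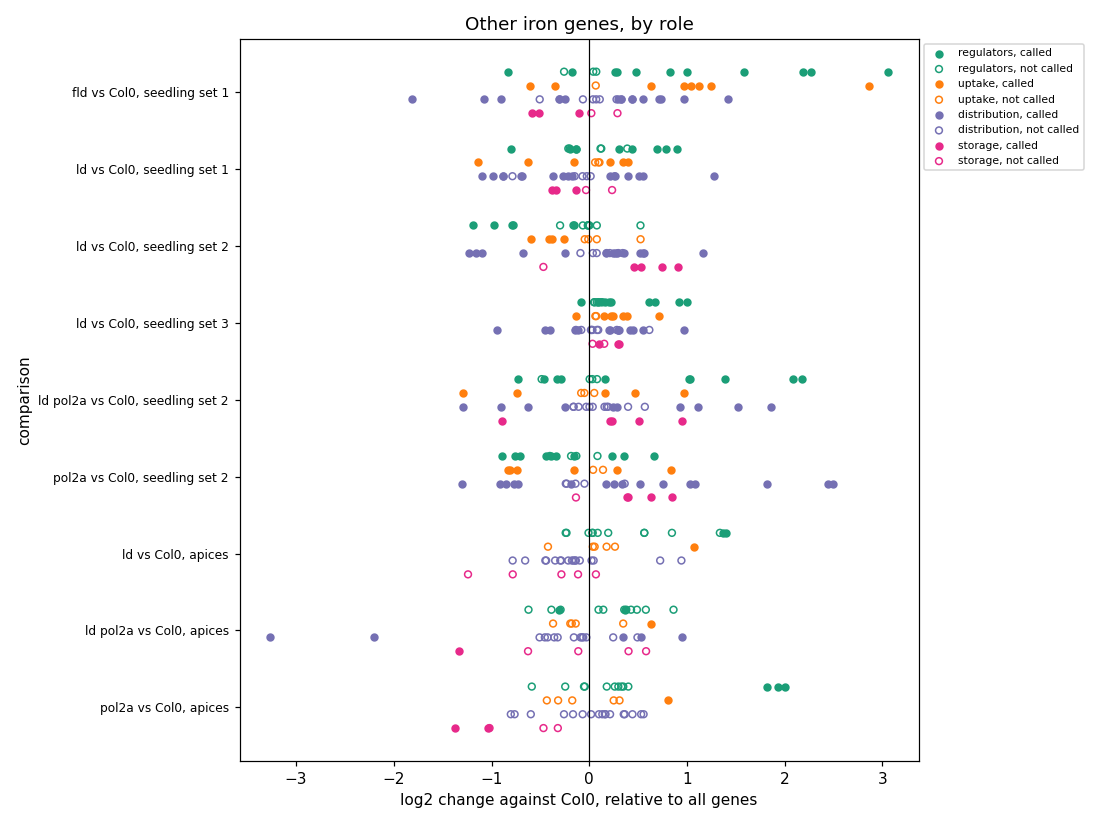
Log2 change of the other iron genes against Col0 in each comparison, relative to all genes, coloured by role. Filled points were called at an adjusted p under 0.05 and open points were not; the storage genes lie right of 0 in ld and pol2a seedlings of set 2 except 1 gene each, and 3 regulators stand apart at 1.82 to 2.00 in pol2a apices.

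All comparisons of a table share its Col0 libraries, so their values are set side by side and not counted as separate evidence.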

How the data were processed

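RNA-seq of seedlings and shoot apices was read from tables deposited by the authors. Reads were trimmed with Trimmomatic 0.38 and processed with HISAT2, SAMtools 1.9 and featureCounts on TAIR10, and deepTools and DESeq2 are also named, per the submitters' processing notes. The apex table holds raw read counts as deposited by the authors. The seedling tables hold signal deposited by the authors, counts divided by 1 factor per library, and whole reads were recovered from every value at a tolerance of 0.1. In sets 1 and 2 the deposited values of the libraries were nearly tied by 1 linear relation, with a smallest singular value of 0.00687 and 0.0124 beside a next one of 1.27 and 1.30, so the spread is understated and seedling p-values are too small. No source used here states how those values were adjusted, and the reads recovered in sets 1 and 2 may not be raw reads.

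Seedling values were rescaled by the median of ratios and log2(value + 1) was fitted with limma 3.58.1 for genes with a mean signal of at least 10, all groups of a set together. Fold changes on that scale understate those of low genes. Apex counts were fitted with edgeR 4.0.16 (TMM, quasi-likelihood, low counts filtered). The ± beside an apex log2 change is the size of that change divided by the square root of its F statistic. It is an approximate standard error and not one given by the fit. P-values were adjusted over all genes by Benjamini-Hochberg, with a threshold of 0.05. CPM and TPM were computed from the recovered reads or counts and the exon lengths of TAIR10.1. The models were tested on simulated data. The 10 members and all lists were chosen with earlier results of these data known. The genes named are the members, the 4 other iron genes with the smallest p among those called in a comparison, the 6 most like the Ib profile and the highest 2 root markers in apices. Overlapping genes and FER2 were named after their values were seen. Alternatives were the deposited scale, other pseudocounts and filters, DESeq2 1.42.0, fewer groups in the fit, a replicate block and leaving out each library.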

Additional observations from a re-analysis of the deposited data

Results flagged for a closer look

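The effect of ld with pol2a minus its effect without pol2a differed from 0 for other iron genes in seedling set 2. By limma with adjustment over all genes it was -2.19 for FER1 (adjusted p = 7.22e-17), -1.07 for FER3 (1.69e-11), 1.28 for FRO3 (2.31e-11) and -0.87 for AHA2 (1.13e-10), all relative to the shift. On the deposited scale AHA2 stood at -0.01 with an adjusted p of 0.922 in limma.

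The members below had every ld library of set 2 below Col0 and every ld library of another set above it, after scaling. The differences between sets were not tested. BHLH38, BHLH100 and BHLH101 passed the minimum signal in set 2 only through ld pol2a, so their values there rest on few reads. BHLH38 stood at -1.53 in set 2 (-1.996 to -0.80 without each library, the last without ld library 3), 0.51 in set 3 and 2.33 in apices. BHLH39 stood at -1.40 in set 2, 0.70 in set 1, 0.59 in set 3 and 2.63 in apices, and BHLH100 at -2.40, 0.82, 0.90 and 3.11 in the same sets. BHLH101 stood at -1.28 in set 2, 0.62 in set 3 and 2.13 in apices. FIT stood at -0.95 in set 2 and 0.23 in set 3, and CYP82C4 at -2.18 and 0.89. The set 2 value of CYP82C4 also rests on few reads in ld. IRT1 stood at -1.87 in set 2, 0.15 in set 1 and 0.38 in set 3, and FRO2 at -1.57, 0.40 and 0.65.

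In pol2a the direction was opposite in seedlings and apices for BHLH39 (-0.74 and 3.19), BHLH100 (-1.37 and 2.76) and BHLH101 (-1.65 and 1.899). The seedling values of BHLH100 and BHLH101 rest on 3 to 5 reads in pol2a libraries, and both genes were in that fit only through ld pol2a. In the apex fit both were present only through ld or pol2a. BHLH39 in seedlings lost its limma call without pol2a library 1, pol2a library 3 or Col0 library 2 (adjusted p = 0.078, 0.0606 and 0.0563). The difference between the tissues, which also differ in table, extraction and scaling, was not tested.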

How the results depend on the processing

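On the deposited scale the change of OPT3 in ld of set 1 turned to 0.87 and that of FIT in ld pol2a of set 2 to 0.96, which the shift of all genes accounts for by construction. The number of other iron genes called on that scale was 42 in ld of set 2, 48 in ld pol2a of set 2 and 51 in ld of set 3, against 26, 30 and 33 relative to the shift. In ld apices 3 were called, and DESeq2 called 5, while none was called with only the groups compared (9 at an unadjusted p under 0.05 in edgeR) or without the library with the most root marker reads in each group (10 at an unadjusted p), an alternative chosen after seeing the data. Leaving out each library gave 0 to 13, with 6 to 19 at an unadjusted p. In ld pol2a apices 9 were called, against 5 with no filter on low counts, 15 with only the groups compared, 3 without the libraries with the most root reads, and 5 to 7 without each library (5 without Col0 library 3, ld pol2a library 2 or ld pol2a library 3). The cause was not tested. Of the members in pol2a seedlings 6 were called, including BHLH100 and BHLH101, which passed the filter only through ld pol2a, and 4 with only the groups compared and 5 to 6 without each library, and nothing is read from these counts. The main fits did not pair libraries by replicate number, and the labels do not say if the numbers pair them. Same-numbered deviations correlated over 0.1 in 12 of 18 pairs in apices, 5 of 9 in set 1, 6 of 18 in set 2 and 1 of 3 in set 3. These correlations ran from -0.51 to 0.76 in apices and from -0.24 to 0.52 in set 1, so a partial pairing is possible in both. Some libraries with different numbers also correlated over 0.1 in each of the tables, so these counts do not settle the pairing. With the replicate number as a block, the other iron genes called were 38 in fld, 34 in ld of set 1, 33 in ld against fld, 25 in ld, 35 in pol2a and 30 in ld pol2a of set 2, 30 for the interaction, 33 in ld of set 3, and 3 in ld, 8 in pol2a and 12 in ld pol2a apices, and members called in pol2a stayed at 6 and 4. Low reads limit the Ib genes of set 2, CYP82C4 in ld of set 2 and the uptake genes of apices. In apices BHLH100 and BHLH101 passed the filter only through ld or pol2a, so nothing is read from the 4 members called there. With each pair of close libraries counted as 1 sample, a choice made after seeing the data, 35 other iron genes were called in fld, 33 in ld of set 1 and 28 in ld of set 3.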
